A study of Homo sapiens with 6 samples.

Results

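The 49 genes described here encode the machinery that opens replication origins and copies DNA at the fork. Their rows were found by gene name, but the list itself was chosen with earlier results of these data known. Each name matched exactly 1 of the 18999 features listed in the deposited FPKM table (reads scaled by feature length and library total). MCF10A is an immortalised, non-tumorigenic human mammary epithelial line. The cells of one group were transduced with the retroviral vector pMSCVpuro carrying the pre-miR-203a hairpin, and the cells of the other with empty pMSCVpuro. All were selected with puromycin and kept in the same serum-, growth factor- and hormone-supplemented medium, and 3 libraries per group were sequenced, called EV1, EV2 and EV3 for the empty vector and M1, M2 and M3 for pre-miR-203a. The labels do not say whether the lines are pools or clones, or whether the 3 libraries of a group are independent cultures. The p-values therefore reflect only how far these libraries spread, and that spread may be technical. The molecule field names total RNA, while the extraction text describes an AGO2 immunoprecipitation before mRNA purification, and which of them applied was not settled by the labels. Levels below therefore refer to the RNA that was sequenced, be it total or AGO2-bound.

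DNA is copied once per cell cycle. In G1 the origin recognition complex, with CDC6 and CDT1, loads the MCM2 to MCM7 ring on DNA. At the start of S phase CDC45 and the GINS complex join the ring to form the active helicase, primase and the replicative polymerases are recruited, and the sliding clamp PCNA holds the polymerases on DNA. Many of these genes are known targets of E2F transcription factors and are transcribed mainly in proliferating cells. In stratified epithelia miR-203 is known as a microRNA of cells that have left the proliferating layer.

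The hairpin itself checks the labels. MIR203A had 4.63, 5.44 and 6.96 FPKM in EV1, EV2 and EV3 but 19005, 3699 and 24945 in M1, M2 and M3. Recovered reads per library ranged from 7632063, in M3, to 35084590, and any 1 of the 49 genes had 39 to 17625 reads in a library. All 10 epithelial markers were listed, with a summed FPKM of 1241 to 1516 in the empty-vector group and 1202 to 1608 in the pre-miR-203a group, although the keratin KRT14 had only 1.34 ± 0.50 and 1.06 ± 0.40 FPKM (SD, n = 3 each). Single epithelial markers moved in opposite directions. KRT5 fell from 617 ± 74.2 to 383 ± 26.5 FPKM, CDH1 rose from 55.8 ± 7.09 to 101 ± 14.0 and ITGB4 rose from 130 ± 12.4 to 186 ± 25.1, with adjusted p of 0.019, 0.0098 and 0.049 (limma). The other 7 were not called. Of these TP63 went from 10.6 ± 2.04 to 5.70 ± 1.93 FPKM (adjusted p = 0.053, limma) and KRT17 from 217 ± 88.1 to 388 ± 168 (0.18). Both were past the threshold with the replicate number as a block (0.026 and 0.017, limma) and in the authors' deposited table (0.0091 and 0.044, DESeq2). The call of KRT5 ended without EV1, EV2, M1 or M2 (adjusted p as high as 0.096, limma) and that of ITGB4 without any 1 library (as high as 0.19). Of the other cell types' markers, 2 of 5 leukocyte genes were listed and summed to 0.0644 to 0.266 FPKM, 3 of 3 endothelial genes summed to 0.162 to 0.339, and 3 of 4 fibroblast genes summed to 3.84 to 6.88 against 5.50 to 9.45. Of these COL1A1 rose, from 0.90 ± 0.15 to 1.93 ± 0.03 FPKM (0.63 ± 0.12; adjusted p = 0.013, limma; lost without EV1 or M1, as high as 0.060). The 8 proliferation markers (MKI67, TOP2A, PLK1, CCNB1, AURKA, BUB1, CDK1 and CCNA2) were all lower in pre-miR-203a cells, with summed FPKM of 643, 646 and 521 against 173, 317 and 220. The part of these markers in the changes below was not tested, and in bulk RNA fewer cycling cells and less RNA per cell cannot be told apart.

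The sequence of the introduced microRNA and of a few gene starts are shown because they are what the replication genes were compared on apart from expression. The mature strand, from RefSeq on GRCh38.p14 at chr14:104117469-104117490 on the + strand, has its seed (bases 2 to 8) in capitals.
miR-203a-3p: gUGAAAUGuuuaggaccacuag
Promoter windows run from 250 bases before to 50 after a gene's start (RefSeq, GRCh38.p14, read 5′ to 3′ on the gene's strand). Capitals mark the E2F-type words TTTCCCGC, TTTGCCGC, TTTCGCGC and TTTGGCGC, searched on both strands with overlaps allowed. DTL, MCM6, PCNA and CLSPN are shown as genes that fell and hold a word, RFC4 as a gene that fell without one, and POLE4 as a gene with a word that was not called.
DTL promoter, chr1:212035498-212035797, + strand: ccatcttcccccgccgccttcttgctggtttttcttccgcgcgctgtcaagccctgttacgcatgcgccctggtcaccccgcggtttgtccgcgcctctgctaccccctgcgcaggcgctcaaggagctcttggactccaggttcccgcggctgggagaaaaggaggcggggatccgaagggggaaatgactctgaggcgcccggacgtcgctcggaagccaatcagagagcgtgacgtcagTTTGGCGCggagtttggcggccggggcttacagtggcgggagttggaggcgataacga
MCM6 promoter, chr2:135876394-135876693, - strand: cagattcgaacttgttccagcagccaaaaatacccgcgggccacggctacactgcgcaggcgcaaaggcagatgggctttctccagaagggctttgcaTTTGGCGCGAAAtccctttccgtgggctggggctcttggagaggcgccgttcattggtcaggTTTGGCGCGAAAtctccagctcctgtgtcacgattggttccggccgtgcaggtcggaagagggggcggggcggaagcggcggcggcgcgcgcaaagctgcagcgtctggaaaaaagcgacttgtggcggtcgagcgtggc
PCNA promoter, chr20:5126573-5126872, - strand: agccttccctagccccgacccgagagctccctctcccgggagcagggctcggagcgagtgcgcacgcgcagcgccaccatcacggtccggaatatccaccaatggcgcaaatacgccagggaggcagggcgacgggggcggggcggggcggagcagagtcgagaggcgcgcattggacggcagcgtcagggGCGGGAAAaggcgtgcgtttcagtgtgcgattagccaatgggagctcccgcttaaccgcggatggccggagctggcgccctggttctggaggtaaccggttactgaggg
CLSPN promoter, chr1:35769929-35770228, - strand: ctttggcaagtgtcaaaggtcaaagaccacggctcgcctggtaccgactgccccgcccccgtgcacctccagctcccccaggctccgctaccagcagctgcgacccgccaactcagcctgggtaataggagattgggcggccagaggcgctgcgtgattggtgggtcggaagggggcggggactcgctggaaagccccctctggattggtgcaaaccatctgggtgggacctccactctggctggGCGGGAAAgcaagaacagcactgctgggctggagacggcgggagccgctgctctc
RFC4 promoter, chr3:186806433-186806732, - strand: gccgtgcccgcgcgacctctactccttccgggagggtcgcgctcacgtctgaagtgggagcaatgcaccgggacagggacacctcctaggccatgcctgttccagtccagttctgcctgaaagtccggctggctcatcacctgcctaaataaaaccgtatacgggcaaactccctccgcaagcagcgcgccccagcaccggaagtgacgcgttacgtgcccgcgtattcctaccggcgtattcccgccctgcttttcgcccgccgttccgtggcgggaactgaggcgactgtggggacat
POLE4 promoter, chr2:74958393-74958692, + strand: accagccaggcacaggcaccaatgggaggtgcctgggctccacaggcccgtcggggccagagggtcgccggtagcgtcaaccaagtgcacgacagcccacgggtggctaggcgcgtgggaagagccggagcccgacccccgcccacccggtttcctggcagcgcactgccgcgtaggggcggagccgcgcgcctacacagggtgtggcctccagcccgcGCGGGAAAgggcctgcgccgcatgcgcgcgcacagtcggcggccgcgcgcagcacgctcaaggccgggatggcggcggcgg
In the MCM6 window the capitals run over 2 copies of a stretch in which TTTGGCGC overlaps the reverse complement of TTTCGCGC. The DTL word starts 8 bases before the annotated start, and that of CLSPN 5 bases before it.

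Transcripts of nearly the whole replication machinery were lower in pre-miR-203a cells. Of the 49 genes 43 fell and 0 rose (limma on log2(FPKM + 1), adjusted p under 0.05 over all 11271 tested features). Among all tested features 9.18% were lower and 6.59% higher by this rule. At an unadjusted p under 0.05 (limma) 46 of the 49 were lower and 0 higher, against 17.1% and 13.0% of all tested features. All 49 genes passed the filter on low values, a value no lower than 1 FPKM in 3 or more of the libraries, POLA2 only through EV1 to EV3. The median log2 fold change of the 49 was -1.10, against -0.01 over all tested features, and the mean FPKM in pre-miR-203a cells was under 50% of the empty-vector mean for 32 genes, 50 to 75% for 15 and above 75% for 2. The pre-miR-203a libraries all lay below the empty-vector libraries for 46 genes, against 20.9% of all tested features. The exceptions were POLE, POLE4 and POLD2. The authors' deposited table has 46 of the 49 lower at an adjusted p under 0.05 (DESeq2), where 9.45% of all features with an adjusted p were. Limma-voom on the recovered reads called 43 lower, with 9.75% of all tested features lower.

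Without EV1 the count of lower genes was 28, the lowest of the 6 counts that each left out 1 library, and it was 42 without M2 or M3. Over all tested features the same omissions left 418 lower without EV1, 855 without M2 and 1327 without M3, of 1035 with every library. The 28 genes that kept their call whichever library was left out include all of CDC45 and GINS, all of MCM2 to MCM6, MCM10, DTL and PCNA. With the replicate number as a block 43 were lower, where 9.95% of all tested features were, but RPA2 lost its call and POLE gained one.

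**Figure D1:**
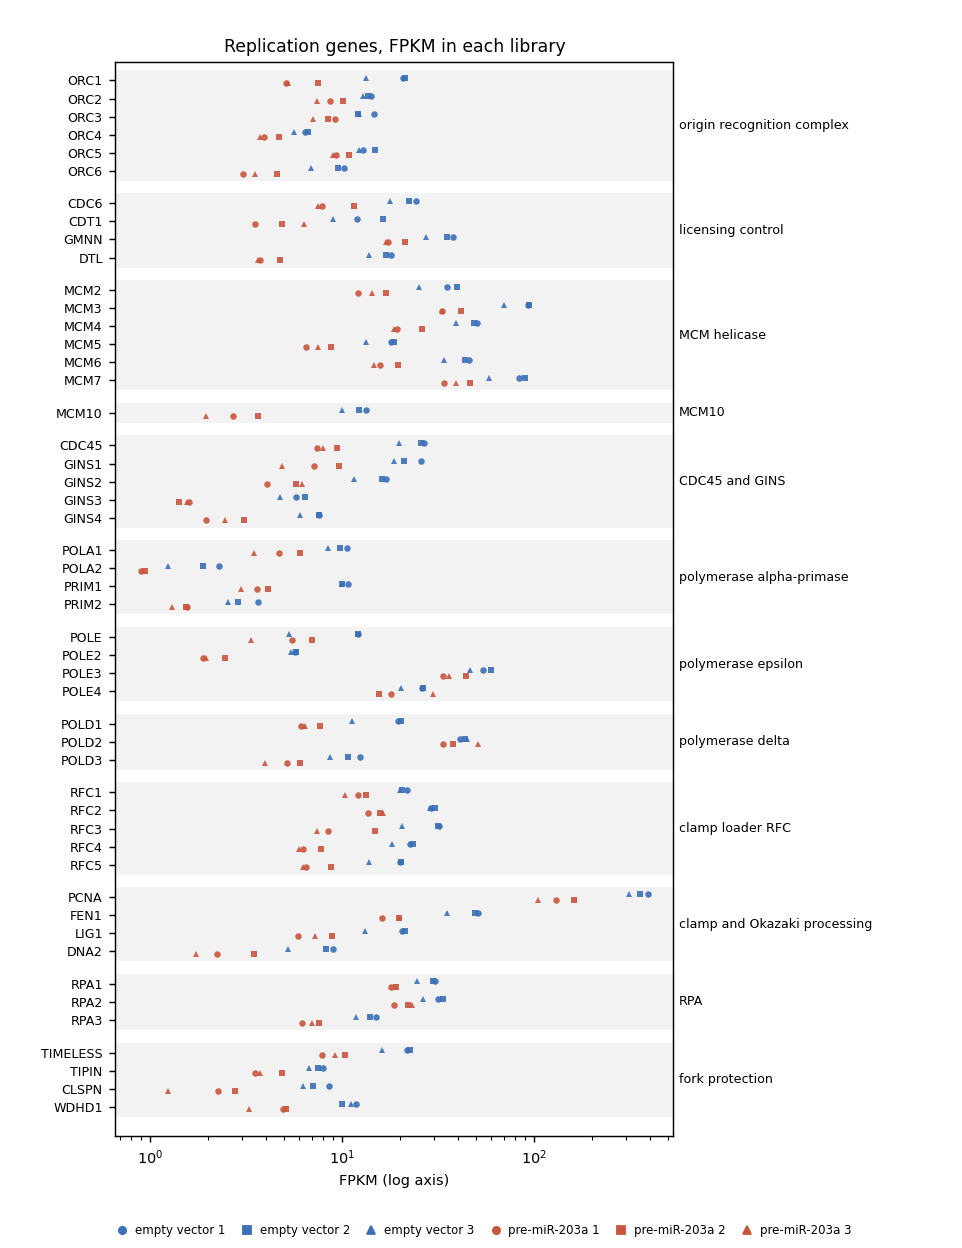
FPKM of the 49 replication genes in each of the 6 libraries on a log axis, grouped by complex; blue symbols are empty-vector libraries and red symbols pre-miR-203a libraries, with circle, square and triangle for libraries 1, 2 and 3. The red symbols lie left of the blue ones in 46 genes; PCNA has the highest FPKM in both groups and POLE4, POLD2 and POLE overlap.

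The origin recognition complex split between its subunits. ORC1, the subunit whose amount varies over the human cell cycle, had 20.7, 21.2 and 13.3 FPKM in EV1 to EV3 against 5.12, 7.51 and 5.21 in M1 to M3, the order used for all values by library. It fell to 32.3% of the empty-vector mean (log2 fold change -1.47 ± 0.21 SE; adjusted p = 0.0064, limma). ORC6, the subunit most loosely attached to the others, fell to 41.9% (-1.06 ± 0.18; adjusted p = 0.010, limma). ORC2, ORC3, ORC4 and ORC5, which form the core of the complex, had log2 fold changes between -0.41 and -0.60. ORC5 had 12.8, 14.8 and 12.2 FPKM against 9.33, 10.9 and 9.01. Its groups did not overlap, but it was not called (-0.41 ± 0.12; adjusted p = 0.065, limma). Per library, the log2 ratio of ORC1 to ORC2 FPKM was 0.55, 0.64 and 0.05 in empty-vector cells and -0.76, -0.43 and -0.50 in pre-miR-203a cells, so that ORC1 was the more abundant of the pair only in the empty-vector libraries. The calls of ORC2, ORC3 and ORC4 ended without any single empty-vector library, those of ORC2 and ORC4 also without M1, that of ORC3 without M2 and that of ORC4 without M3, at adjusted p as high as 0.10, 0.11 and 0.15 (limma). ORC4 also had an adjusted p of 0.063 with values scaled to a common sum per library and 0.059 without the filter on low values (limma).

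All 4 genes that control licensing fell. DTL, the substrate receptor through which the CRL4 ubiquitin ligase destroys CDT1 in S phase, had 18.1, 16.9 and 13.8 FPKM in empty-vector cells and 3.73, 4.76 and 3.65 in pre-miR-203a cells. At 24.8% of the empty-vector mean (-1.78 ± 0.15; adjusted p = 0.0019, limma) its groups stood far apart. CDC6, the ATPase that loads MCM with ORC, fell to 41.8% (-1.18 ± 0.19; adjusted p = 0.0081, limma), and CDT1, which brings MCM to the origin, to 39.3% (-1.18 ± 0.25; adjusted p = 0.019, limma). GMNN, which encodes geminin, the inhibitor of CDT1, had the smallest change of the licensing genes, with 37.9, 35.2 and 27.3 against 17.3, 21.3 and 17.0 FPKM (-0.81 ± 0.16; adjusted p = 0.014, limma). Inhibitor and activator thus were both lower, and the log2 ratio of CDT1 to GMNN FPKM overlapped between groups, at -1.66, -1.10 and -1.61 against -2.29, -2.14 and -1.43. Without EV1, EV2 or M1 the calls of CDT1 and GMNN ended, at adjusted p as high as 0.065 and 0.062 (limma).

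The 6 subunits of the MCM ring fell by similar amounts, to between 40.3% and 51.9% of the empty-vector mean. MCM6 changed most, from 46.1, 43.6 and 34.1 FPKM to 15.7, 19.6 and 14.6 (-1.26 ± 0.16; adjusted p = 0.0043, limma). MCM7 changed least, from 83.1, 89.3 and 58.1 to 33.9, 46.5 and 39.3 (-0.92 ± 0.19; adjusted p = 0.019, limma). For both genes the pre-miR-203a libraries lay below all empty-vector libraries. On the FPKM scale, which is per length, MCM3 (85.5 ± 13.9, SD, n = 3) and MCM7 (76.9 ± 16.5) were the most abundant ring subunits in empty-vector cells and MCM5 (16.6 ± 2.84) the least, and MCM5 was again the lowest with pre-miR-203a, at 7.55 ± 1.13. MCM2, MCM3, MCM4 and MCM5 had log2 fold changes of -1.14, -1.22, -1.08 and -1.04 with adjusted p of at most 0.0094 (limma). The call of MCM7 ended without EV1, EV2 or M1, at an adjusted p as high as 0.077 (limma). Of the exonic bases of MCM2, 23.6% are shared with other annotated genes in GENCODE 29, among them TPRA1, and how the counting treated such reads was not given.

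MCM10, which is needed to switch the loaded helicase on but is no part of the ring, had the largest fall of all 49 genes on the log2(FPKM + 1) scale. It had 13.4, 12.3 and 9.98 FPKM against 2.70, 3.64 and 1.95, 23.2% of the empty-vector mean (-1.79 ± 0.19; adjusted p = 0.0028, limma). The lowest empty-vector library thus held more than the highest pre-miR-203a library. Against MCM7, the log2 FPKM ratio of MCM10 was -2.63, -2.86 and -2.54 in empty-vector cells and -3.65, -3.67 and -4.34 in pre-miR-203a cells.

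The partners that turn the ring into the working helicase, CDC45 and GINS1 to GINS4, all fell, with a median log2 fold change of -1.39 and a range of -1.50 to -1.21. GINS1 had 25.7, 21.0 and 18.7 FPKM against 7.14, 9.65 and 4.85 (-1.50 ± 0.23; adjusted p = 0.0072, limma). GINS4 had 7.58, 7.60 and 6.04 against 1.95, 3.08 and 2.45 (-1.21 ± 0.16; adjusted p = 0.0045, limma). GINS3, the least abundant of the 4 in both groups, fell to 27.0% of the empty-vector mean, from 5.63 ± 0.82 to 1.52 ± 0.10 FPKM (SD, n = 3 each). The order of the 5 depended on the scale. GINS3 had -1.39 on log2(FPKM + 1), but the largest fall of the 5 by limma-voom (-1.89) and in the authors' deposited table (-1.87). GINS4 had -1.50 and -1.47 there. None of the 5 lost its call when any 1 library was left out. Exonic bases shared with other annotated genes made up 23.6% of GINS4 and 10.9% of GINS3.

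Among the polymerases subunits of one enzyme differed, but in polymerase alpha-primase only PRIM1 stood apart. In polymerase alpha-primase, which makes the RNA-DNA primers, the catalytic primase subunit PRIM1 had 10.8, 10.0 and 10.0 FPKM against 3.62, 4.14 and 2.98 (-1.31 ± 0.13; adjusted p = 0.0024, limma). POLA1, the polymerase subunit, fell to 49.4% (-0.90 ± 0.18; adjusted p = 0.016, limma) and PRIM2, the large primase subunit, to 48.3% (-0.70 ± 0.14; adjusted p = 0.016, limma). POLA2, the accessory subunit, had 2.28, 1.89 and 1.24 FPKM against 0.895, 0.940 and 0.918. Its groups did not overlap and its mean was 50.9% of that in empty-vector cells, but it was not called (-0.53 ± 0.16; adjusted p = 0.067, limma). It was not called with a pseudocount of 0.1 (-0.86; adjusted p = 0.066, limma) or by limma-voom (-0.89; adjusted p = 0.062) either. It was past the threshold under quantile normalisation (adjusted p = 0.037, limma) and in the authors' deposited table (-0.94, SE 0.27; adjusted p = 0.0053, DESeq2). In that table POLA1 and PRIM2 had similar log2 fold changes to POLA2, -0.99 and -1.01, and PRIM1 had -1.48. On the log2(FPKM + 1) scale the added 1 draws the changes of genes with low FPKM toward 0. Exonic bases shared with other annotated genes made up 35.1% of POLA2 and 21.6% of PRIM1. The calls of POLA1 and PRIM2 ended without EV1, EV2 or M1, at adjusted p as high as 0.070 and 0.067 (limma).

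Of polymerase epsilon, the leading-strand enzyme, only POLE2 was called by limma. The authors' deposited table also has POLE (-0.86, SE 0.32; adjusted p = 0.037, DESeq2) and POLE3 (-0.46, SE 0.17; adjusted p = 0.042) lower. POLE2, an accessory subunit, had 5.68, 5.76 and 5.42 FPKM against 1.89, 2.45 and 1.95, 37.3% of the empty-vector mean (-1.10 ± 0.12; adjusted p = 0.0029, limma). The catalytic subunit POLE had 12.1, 12.1 and 5.31 against 5.52, 6.95 and 3.35, so that EV3 lay within the range of the pre-miR-203a libraries. Its log2 fold change was -0.76 ± 0.33 (adjusted p = 0.18, limma). With the replicate number as a block it was past the threshold (adjusted p = 0.021, limma), as it was without EV3 (-1.11; adjusted p = 0.046, limma). The histone-fold subunits POLE3 and POLE4, which are also found in chromatin complexes, changed less. POLE3 had 54.1, 59.5 and 46.2 FPKM against 33.4, 44.2 and 36.3 (-0.48 ± 0.15; adjusted p = 0.069, limma), and 0.048 without M2. POLE4 had 26.2, 26.3 and 20.4 against 17.9, 15.6 and 29.7, with the highest value of all in M3 (-0.24 ± 0.23; adjusted p = 0.56, limma). The log2 ratio of POLE2 to POLE3 FPKM was -3.25, -3.37 and -3.09 in empty-vector cells and -4.15, -4.17 and -4.22 in pre-miR-203a cells, so the groups did not overlap in this ratio.

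A similar split was seen in polymerase delta, the lagging-strand enzyme. The catalytic subunit POLD1 had 19.5, 20.3 and 11.3 FPKM against 6.11, 7.71 and 6.40 (-1.18 ± 0.22; adjusted p = 0.013, limma), and POLD3 fell to 47.5% (-0.94 ± 0.17; adjusted p = 0.012, limma). POLD2, a regulatory subunit, had 41.4, 43.5 and 44.8 against 33.7, 37.9 and 51.2. M3 exceeded and the other 2 lay below every empty-vector library, and the mean was 94.7% of that in empty-vector cells (-0.10 ± 0.16; adjusted p = 0.75, limma). Between POLD1 and POLD2 the log2 FPKM ratio went from -1.08, -1.10 and -1.99 to -2.46, -2.30 and -3.00. The call of POLD1 ended without EV1 or M1 and that of POLD3 without EV1, at an adjusted p as high as 0.054 for each (limma).

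**Figure D2:**
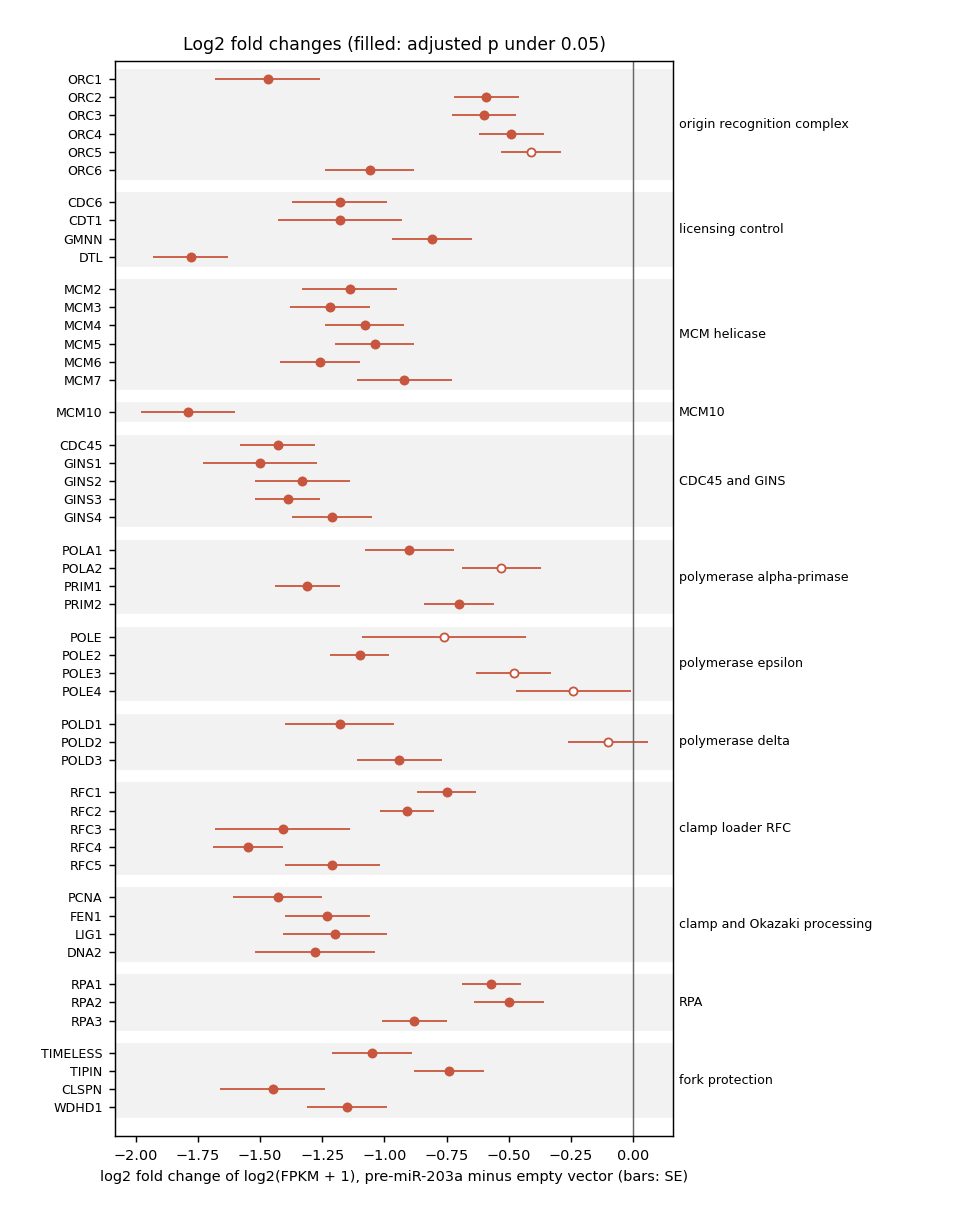
Log2 fold change of each of the 49 genes, pre-miR-203a minus empty vector on the log2(FPKM + 1) scale, with its SE from limma; filled circles mark genes with an adjusted p under 0.05. MCM10 and DTL lie furthest left, at -1.79 and -1.78, and POLD2 lies nearest 0, at -0.10.

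All 5 subunits of RFC, the complex that loads the clamp, fell. RFC4 changed most, from 22.6, 23.4 and 18.2 FPKM to 6.27, 7.78 and 5.95 (-1.55 ± 0.14; adjusted p = 0.0022, limma). RFC1, the large subunit that distinguishes this loader from its alternative forms, changed least, from 21.7, 20.5 and 20.0 to 12.1, 13.4 and 10.4 (-0.75 ± 0.12; adjusted p = 0.0085, limma). The 2 genes had nearly equal FPKM in empty-vector cells, where their log2 ratio was 0.06, 0.19 and -0.14, but not with pre-miR-203a, where it was -0.95, -0.79 and -0.80. RFC2, RFC3 and RFC5 had log2 fold changes of -0.91, -1.41 and -1.21. The call of RFC3 ended without EV1 or M1, at an adjusted p as high as 0.058 (limma).

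PCNA, the clamp, was the most abundant of the 49 transcripts by FPKM in both groups. It had 393, 358 and 311 FPKM against 131, 161 and 105 (-1.43 ± 0.18; adjusted p = 0.0043, limma). The processing enzymes of the lagging strand changed to a like degree, with LIG1, the ligase that joins Okazaki fragments, at 20.5, 21.2 and 13.2 against 5.89, 8.83 and 7.25 FPKM (-1.20 ± 0.21; adjusted p = 0.010, limma). FEN1, the flap nuclease, fell to 41.0% and DNA2, a nuclease and helicase for long flaps, to 33.3%. The call of DNA2 ended without EV1 or M1, at an adjusted p as high as 0.053 (limma). A PCNA pseudogene, PCNAP4, had at most 0.359 FPKM in any library.

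The subunits of RPA, which coats single-stranded DNA and also serves in repair, changed less than most. RPA3 had 15.1, 14.0 and 11.8 FPKM against 6.20, 7.59 and 6.97 (-0.88 ± 0.13; adjusted p = 0.0066, limma). RPA2 had 31.8, 33.7 and 26.5 against 18.7, 22.1 and 23.1 (-0.50 ± 0.14; adjusted p = 0.045, limma). RPA1, the main DNA-binding subunit, fell to 66.1% (-0.57 ± 0.12; adjusted p = 0.018, limma). None of the 3 overlapped between groups, but RPA2 was not past the threshold with the replicate number as a block (adjusted p = 0.072, limma) with values scaled to a common sum per library (0.058) or without the filter on low values (0.074). The calls of RPA1 and RPA2 ended without EV1, EV2 or M1, and that of RPA2 also without M2, at adjusted p as high as 0.093 and 0.16 (limma).

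The 4 fork protection genes fell. CLSPN encodes claspin, which couples the fork to the checkpoint kinase CHEK1, and had 8.60, 7.03 and 6.26 FPKM against 2.27, 2.76 and 1.24 (-1.45 ± 0.21; adjusted p = 0.0065, limma). TIPIN, the partner of TIMELESS, had 7.94, 7.46 and 6.76 against 3.53, 4.89 and 3.73 (-0.74 ± 0.14; adjusted p = 0.013, limma). TIMELESS fell to 45.4% (-1.05 ± 0.16) and WDHD1, which links the helicase to polymerase alpha, to 40.4% (-1.15 ± 0.16), with adjusted p of 0.0074 and 0.0058 (limma). For TIPIN, 21.0% of the exonic bases are shared with an annotated ribosomal protein pseudogene, and its call ended without EV1, EV2 or M1 (adjusted p as high as 0.064, limma).

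Within each group 1 library stood at the same end in all 12 complexes, EV3 as the lowest and M2 as the highest, while the order of the other libraries varied. EV3 was the lowest of its group for 46 of the 49 genes (93.9%), against 51.9% of all tested features, and M2 was the highest of its group for 40 (81.6%), against 32.4%. The median of the 49 on the log2(FPKM + 1) scale, relative to each gene's empty-vector mean, was 0.14, 0.09 and -0.22 in EV1 to EV3 and -1.24, -0.86 and -1.17 in M1 to M3, while over all tested features it stayed between -0.05 and 0.03. The summed proliferation markers were likewise lowest in EV3 and highest, within the pre-miR-203a group, in library 2. That library also had the lowest MIR203A level of its group. The part of either measure in the order was not tested.

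**Figure D3:**
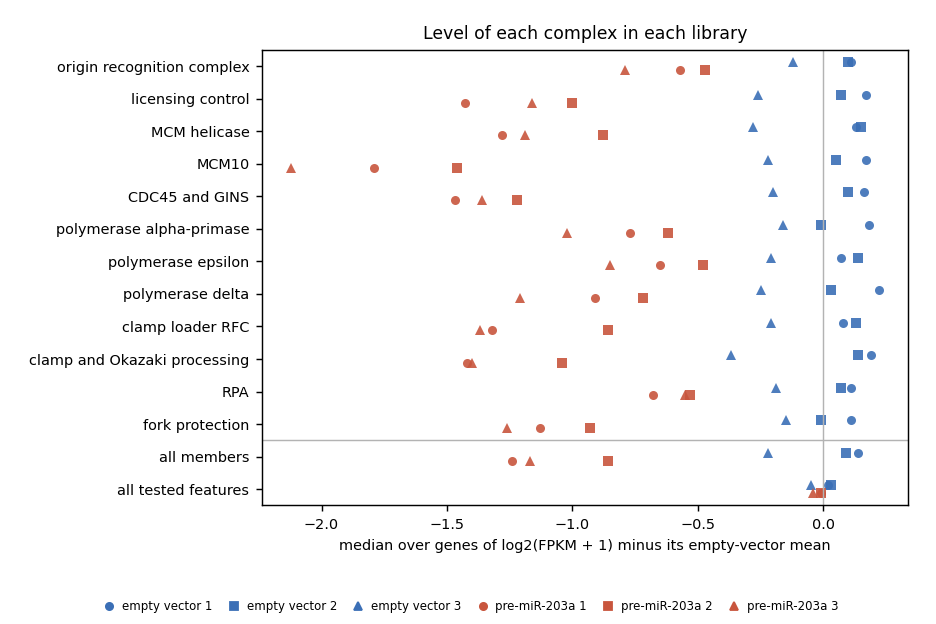
Median over the genes of each complex of log2(FPKM + 1) minus the gene's empty-vector mean, in each of the 6 libraries (blue, empty vector; red, pre-miR-203a; circle, square and triangle for libraries 1, 2 and 3). The red symbols lie left of the blue ones in every complex, from a median of -0.47 for origin recognition in M2 to -2.12 for MCM10 in library 3, while all tested features stay near 0.

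Other genes of replication followed in part. Of 46 listed genes that act beside this machinery, 43 were tested, 20 fell and 1 rose, and the median log2 fold change was -0.64. The shares over all tested features were 9.18% lower and 6.59% higher. An unadjusted p under 0.05 (limma) was reached by 26 in the lower and 2 in the higher direction, against 17.1% and 13.0% of all tested features. With the replicate number as a block 26 were lower at an adjusted p under 0.05 (limma), where 9.95% of all tested features were. The block added MCM8, TOPBP1, RECQL4, RIF1, RNASEH2B and CHTF18. DSCC1, a subunit of an alternative clamp loader, fell from 11.7 ± 1.19 to 3.20 ± 0.51 FPKM (-1.60 ± 0.14; adjusted p = 0.0019, limma). PRIMPOL, which reprimes stalled forks, fell from 6.92 ± 0.35 to 2.56 ± 0.02 (-1.15 ± 0.10; adjusted p = 0.0022, limma), and CHAF1B, of the chromatin assembly factor CAF-1, from 9.34 ± 0.96 to 3.45 ± 0.37 (-1.21 ± 0.12; adjusted p = 0.0026, limma). Exonic bases shared with another annotated gene, CENPU, made up 12.2% of PRIMPOL. The gene that rose was POLD4, the small subunit of polymerase delta, from 0.87 ± 0.11 to 1.95 ± 0.58 FPKM (0.64 ± 0.16; adjusted p = 0.036, limma). It passed the filter on low values only through M1 to M3, so it was not tested when any of these was left out, and its call ended without EV1, EV2 or EV3. Another annotated gene shares 21.3% of its exonic bases. Without EV1 the count of lower genes in this list was 13, and 418 over all tested features. Among 12 tested polymerases that work outside the replisome only POLQ was called, lower at -1.19 ± 0.25 (adjusted p = 0.019, limma), and the median of the 12 was -0.08. This 1 of 12 is near the 9.18% of all tested features that were lower. The call of POLQ ended without EV1, EV2 or M1.

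Promoter windows were available for 42 of the 49 genes. An E2F-type word was found in 20 of them (47.6%), against 5.81% of 8501 tested genes with a window, and in 18 within the 150 bases nearest the start (42.9%, against 2.92%). MCM2, MCM3, MCM6 and MCM7 held more than 1 word, as did 0.294% of all tested genes with a window. The 2 words of MCM2 overlap on opposite strands of 1 stretch, as do those in each MCM6 stretch. The median log2 fold change was -1.19 for the 20 genes with a word and -0.98 for the 22 without, and the classes overlapped widely. RFC4 (-1.55), MCM10 (-1.79) and ORC1 (-1.47) fell without a word in the window, and POLE4 (-0.24), POLA2 (-0.53) and POLE (-0.76), each with 1, were not called. A match is a description of the letters and no measure of binding. Only exact copies of the words were counted, so a window without one may hold a near copy, such as TTTGGCGG in that of MCM10. Over all tested genes, the medians were -0.12 with a word and -0.02 without.

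Matches to the miR-203a-3p seed were found in a similar share of the replication genes and of all tested genes. In the longest annotated 3′ UTR (GENCODE 29) 14 of the 49 (28.6%, 95% Wilson interval 17.8 to 42.4%, counting error only) held a 7mer match, CATTTCA (7mer-m8) or ATTTCAA (7mer-A1), against 32.8% of 10185 tested genes with a match of 7 or 8 bases. The full 8mer CATTTCAA was found in 0 of the 49 and in 7.34% of the tested genes. The UTRs of the replication genes were shorter, with a median of 956 bases against 1404. The genes with a match had a median log2 fold change of -1.18 and the 35 without one -1.06, against -0.10 and 0.02 over all tested genes. Sites are shown for replication genes with large falls and for ORC4, a gene with a site and a small change. Each is given as 30 bases of the GRCh38 transcript with the match in capitals. GINS1 also held a 7mer-A1 match that is not shown.
MCM10, 7mer-m8, chr10:13209936-13209965, + strand: aagccactgaatcactttgCATTTCAgttt
GINS1, 7mer-m8, chr20:25448349-25448378, + strand: tacaggtctaccatgtcagCATTTCAtagt
GINS3, 7mer-m8, chr16:58404807-58404836, + strand: cagaaccagaatcctgtccCATTTCAtggc
DTL, 7mer-A1, chr1:212104946-212104975, + strand: attcccaaagttataatctATTTCAAgctg
PCNA, 7mer-A1, chr20:5114955-5114984, - strand: tttaaataaagttacttgaATTTCAAacat
ORC4, 7mer-m8, chr2:147935474-147935503, - strand: ccagtgacttcaactttggCATTTCAttca
RFC4, ORC1 and CLSPN, with log2 fold changes of -1.55, -1.47 and -1.45, held no such match in UTRs of 143, 352 and 673 bases.

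**Figure D4:**
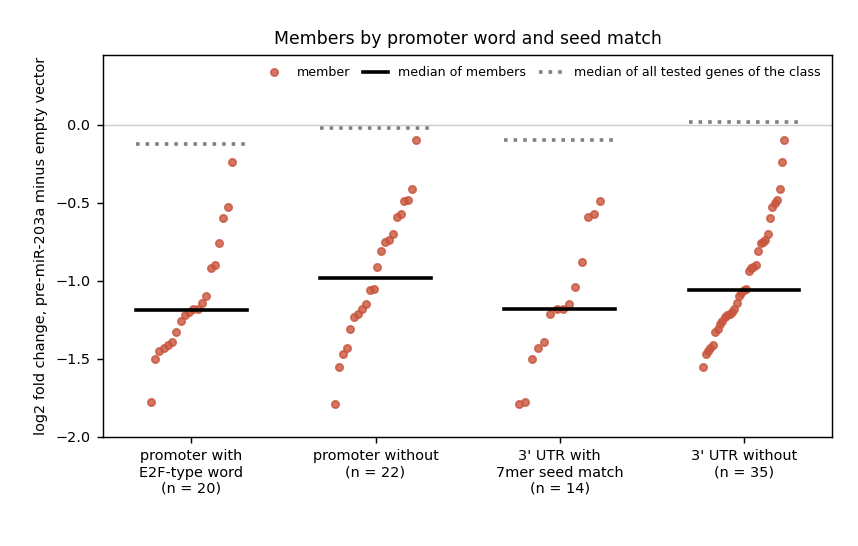
Log2 fold change (pre-miR-203a minus empty vector, log2(FPKM + 1) scale) of the replication genes, split by an E2F-type word in the promoter window (20 with, 22 without) and by a 7mer seed match in the longest 3′ UTR (14 with, 35 without); each circle is a gene, black bars are medians of these genes and dotted bars medians of all tested genes of the same class. The black bars lie between -0.98 and -1.19 in all 4 classes, and the dotted bars between -0.12 and 0.02. For all tested genes a seed match has 7 or 8 bases.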

How the data were processed

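Groups and replicate numbers came from the sample titles. The members and gene lists were chosen with earlier results of these data known. The submitters' processing notes name the build hg38, DESeq2 1.28.1, featureCounts 2.0.0, MultiQC 1.6 and FastQC 0.11.5. Aligner, annotation release and strand setting: not given in the sources used here. Deposited by the authors were FPKM values for 18999 features and TPM values that have a common sum in each library. Their comparison table, as deposited, holds a baseMean signal (mean of reads over size factors), log2 fold changes whose sign was turned here to pre-miR-203a minus empty vector, their standard errors (kept as a score) and p-values with adjusted p-values.

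A 2-group model without covariates was fitted to log2(FPKM + 1) in limma 3.58.1 (R 4.3.3; eBayes, trend and robust). The 11271 features tested reached 1 FPKM in 3 or more libraries, and the Benjamini-Hochberg threshold was 0.05. Whole reads were recovered from FPKM and baseMean, where 100% were whole numbers to within 0.01. These gave the depths, which cover the listed features only, and the input to limma-voom. The tests were tried on simulated data. Deviations from the group means correlated at 0.433, 0.269 and 0.321 between same-numbered libraries. Between libraries of different number they ran from -0.417 to 0.221, the highest for EV1 with M2. The labels state no shared batch. The main fit has no block, and results with the replicate number as a block are given beside it. Per-library values are given for the largest and smallest change in each complex and for every gene not called. From the lists of other replication genes and of other polymerases the 3 called genes with the smallest p in each direction are named; RFC4, ORC1 and others in the sequence passages were picked after their values were seen. Promoters are the first start listed in RefSeq, and 3′ UTRs come from GENCODE 29 transcripts joined by Ensembl identifier, with a stop codon before 35833 of 35845 UTRs. The 12 others were left out.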

Additional observations from a re-analysis of the deposited data

How the results depend on the processing

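The count of 43 lower replication genes was 41 to 44 in the 9 settings that kept all 6 libraries, with 43 under the replicate block, and 28 to 42 when 1 library was left out. No replication gene was called higher in any setting. Their median log2 fold change of -1.10 ranged from -1.28, with values scaled to a common sum per library, to -1.02. Over 729 single-gene comparisons with another setting, 674 kept direction and call, 50 lost the call, 4 gained one and 1 changed sign, which was POLD2 at 0.03 without M1 (-0.27 without M3). The list of other replication genes had 13 to 22 lower and 0 to 1 higher genes when 1 library was left out, where the 1 was not POLD4. Its 1 higher gene became 0 without the filter on low values and 2 with median-of-ratios scaling or limma-voom. Over all features 1035 were lower and 743 higher, and leaving out 1 library gave 418 to 1327 and 272 to 821. Scaling to a common sum per library gave 1005 lower and 434 higher, so that 30.2% of calls were higher in place of 41.8%, and shifted the median of all tested features by -0.10. In the shortest annotated 3′ UTR a 7mer match was found for 16.3% of the replication genes, and a match of 7 or 8 bases for 12.9% of all tested genes. The median lengths of these sequences were 305 and 264 bases. With any listed start of a gene counted, an alternative chosen after seeing the data, 52.4% of the replication genes and 7.08% of the tested genes held an E2F-type word. M3 was the shallowest, and the lowest read number of a replication gene, 39, was that of POLA2 there. The causes of the shifts between settings were not tested.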
